A study of Mus musculus with 48 samples.

Results

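The comparison was between poly(A) RNA libraries from immunopanned mouse eye cells, 3 made from RNA captured through 5-ethynyl uridine (EU) and 3 made without the capture. These are 6 of the 48 libraries of the series, and the 2 groups follow the labels. All 6 are labelled as retinal ganglion cells from wild-type mice at P14 (postnatal day 14) with no axotomy, taken from the eye and isolated by immunopanning. The EU group (EU 1, EU 2 and EU 3) carries the added label "EU labeled", and the other group (total 1, total 2 and total 3) does not. The one protocol text shared by all libraries describes EU injection into the vitreous, pooled superior colliculi and biotin capture. It does not describe how the eye cells were panned, or whether the eyes of the total group received EU. The labels do not tie a library to an animal, so the p-values measure the spread between libraries, which may be technical.

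EU is a uridine analogue that cells build into RNA made while it is present. Its alkyne group takes a biotin tag by click chemistry, so streptavidin beads can pull the labelled RNA out of a total extract. Transcripts that are made quickly and decay quickly, such as those of immediate early genes, are therefore a usual part of newly made RNA, while long-lived transcripts weigh more in a total extract. Immunopanning collects cells on a dish coated with antibody. Retinal ganglion cells, the output neurons of the eye, are the usual target in retina and are a small share of its cells beside the many rod photoreceptors. The lens, which lies in the path of a dissection of the eye, is made of fibre cells that fill themselves with crystallins and keep their proteins for life.

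The libraries held between 12161260 and 27219145 estimated counts. Levels below are CPM (counts scaled to a common library size) normalised with the trimmed mean of M-values (TMM), unless a sentence says otherwise. Total 1 stood apart from every other library: 64.9% of its counts fell on genes with provisional names (Gm plus digits), against 0.925% to 3.58% in the other 5. Mitochondrially encoded genes gave 0.144% of its counts. Its rank correlation (Spearman) over 20754 genes with the 47 other libraries of the series did not exceed 0.354, while total 2 and total 3 correlated at 0.929. EU 1 also differed from its own group, with 7.89% mitochondrial counts against 55.2% in EU 2 and 46.5% in EU 3. All comparisons are therefore given without total 1 and, where stated, with it.

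**Figure D1:**
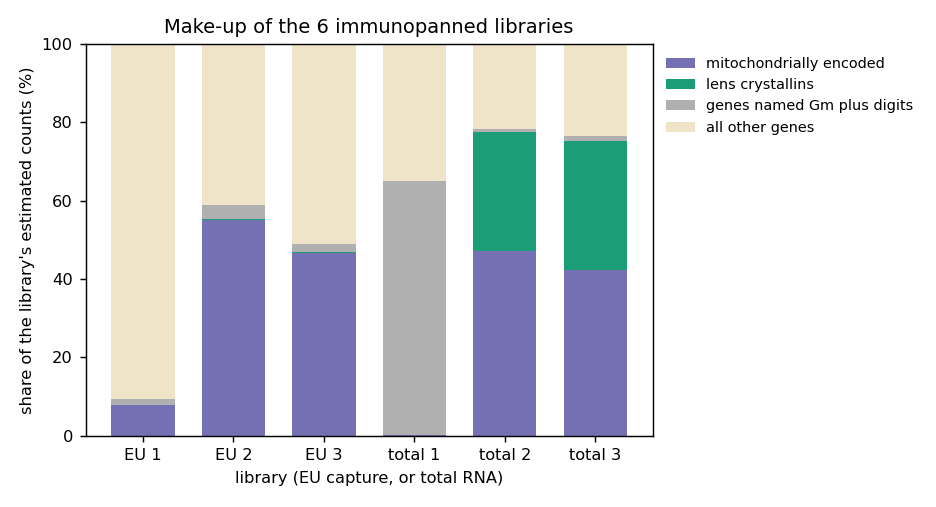
Share of each library's estimated counts (%, vertical axis) taken by mitochondrially encoded genes, the 16 lens crystallins, genes named Gm plus digits and all other genes, for the 6 libraries (horizontal axis). Crystallins filled 30.2% of total 2 and 33.0% of total 3 and at most 0.309% of any EU library, and total 1 was filled by Gm-named genes (64.9%).

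The ganglion cell label was checked against 20 marker genes, which together reached 221, 760 and 1130 CPM of the library total in EU 1, EU 2 and EU 3 and 57.1, 468 and 521 in total 1, total 2 and total 3. The same sum was 184 to 285 in the 3 libraries of wild-type eye cells sorted by FACS and 3860 to 6570 in the 5 libraries of EU-captured RNA from the superior colliculus at P14. On the TMM scale Rbpms, an RNA-binding protein that marks ganglion cells, was at 0.594, 1.64 and 0 CPM with EU capture and at 5.53 and 5.05 in total 2 and total 3. Slc17a6, the vesicular glutamate transporter of ganglion cells, was at 0.0415, 2.04 and 5.58 against 6.09 and 12.5. Rod markers were far higher: the 18 rod genes summed to 154000, 9820 and 16400 CPM of the library total with EU capture and to 25100 and 23200 in total 2 and total 3. The libraries are therefore called immunopanned libraries here, since ganglion cell markers are a small part of them. In bulk RNA, fewer cells of a type and less RNA per cell cannot be told apart.

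Without total 1, the genes that fell with EU capture included genes of lens fibre cells and of surface epithelium: 6 belonged to the list of lens genes other than crystallins and 3 to the corneal list. Of 14342 genes tested with edgeR's quasi-likelihood test, 25 were lower with EU capture at an adjusted p (Benjamini-Hochberg) under 0.05, which is 0.174% of the genes tested, and none was higher (0.0%). At an unadjusted p under 0.05 there were 929 lower and 432 higher. DESeq2 called 583 lower and 113 higher on the same libraries. Limma on log2(TPM + 1) called 83 lower and 1824 higher, on a scale where the median gene stood at a log2 difference of 1.94, against 0.29 in the edgeR fit. The calls also rested on EU 2 and EU 3: leaving out either gave 0 calls in both directions, and leaving out EU 1 gave 215 lower and 30 higher.

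With all 6 libraries, edgeR called 0 of 13360 genes in either direction (0.0% higher and 0.0% lower), with 157 higher and 1054 lower at an unadjusted p under 0.05. DESeq2 called 17 higher and 221 lower there, and limma on log2(TPM + 1) called 3881 higher and 18 lower. Groups did not overlap for 10.8% of these genes with EU capture above and for 7.99% with EU capture below.

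Structural genes of lens fibre cells were among the 25. Bfsp2, which encodes the beaded filament protein phakinin, was at 1.01, 0.994 and 0.306 CPM with EU capture and at 1440 and 2130 CPM in total 2 and total 3. Its log2 fold change was -11.18 (SE 0.92, adjusted p = 0.0363). Bfsp1 encodes filensin, the other beaded filament protein, and was at 0.138, 0 and 0.178 CPM against 307 and 415. Its log2 fold change was -11.68 (SE 1.24, adjusted p = 0.0373). Gja3, a gap junction connexin (mouse build mm10, chr14:57034460-57058100), had no count in any EU library and 78.1 and 136 CPM in total 2 and total 3, at least 5430-fold lower against a floor of 3 counts over the 3 EU libraries. Dnase2b, the nuclease that clears DNA from lens fibre nuclei, was without a count in the EU libraries and at 36.0 and 38.3 CPM otherwise, at least 1880-fold lower. Lctl, a klotho-family protein of the lens, had 3 counts with EU capture and 144 and 189 CPM in total 2 and total 3, a ratio of 8470 (exact 95% interval 2900 to 41100, counting error only). Gja3 stood outside the fixed list of 11 lens genes other than crystallins. Of those 11, 6 fell at an adjusted p under 0.05, none was higher, and in all 11 every EU library lay below total 2 and total 3. Over all genes tested, 18.2% had such non-overlapping groups with EU capture below. In total 1 the 11 genes summed to 0.94 CPM, below the 1.37, 10.9 and 4.28 of the EU libraries.

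The promoters of 3 crystallins and of Lctl are shown as examples, chosen with earlier results of these data known. All 16 crystallins and all 11 other lens genes had the same order of groups. Each promoter shown holds a Maf half-site, which most crystallin promoters lack. Each window is the 120 bases before the RefSeq start (GRCm38.p6), written 5′ to 3′ on the gene's strand. Capitals mark a Maf half-site (TGCTGA or its reverse TCAGCA), the core of the element that lens Maf proteins bind, a TATA box (TATAAA or TTTATA) and a cyclic AMP response element half-site (TGACG or CGTCA). In Cryaa the last of these overlaps the Maf half-site.
Cryaa, chr17:31677811-31677930, plus strand: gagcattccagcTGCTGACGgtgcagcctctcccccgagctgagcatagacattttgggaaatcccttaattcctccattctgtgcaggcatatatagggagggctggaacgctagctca
Cryba1, chr11:77725294-77725413, minus strand: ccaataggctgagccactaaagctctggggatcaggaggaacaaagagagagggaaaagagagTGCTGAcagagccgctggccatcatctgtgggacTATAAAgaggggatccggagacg
Crybb1, chr5:112255700-112255819, plus strand: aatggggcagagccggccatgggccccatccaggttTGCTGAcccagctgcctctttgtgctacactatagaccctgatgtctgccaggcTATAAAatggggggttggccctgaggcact
Lctl, chr9:64117027-64117146, plus strand: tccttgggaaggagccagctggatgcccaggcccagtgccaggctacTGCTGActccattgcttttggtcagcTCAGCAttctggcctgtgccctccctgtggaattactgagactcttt

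A Maf half-site stood in this window in 5 of the 15 crystallin genes with a RefSeq promoter and in 8.18% of all 32851 promoters. A TATA box stood in 3 of the 15, and in 6.34% of all promoters. A match of letters is a description of the window, not evidence of binding.

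All 16 crystallins, the refractive proteins of the lens, had every EU library below total 2 and total 3. EdgeR called 0 of them at an adjusted p under 0.05 and placed all 16 below an unadjusted p of 0.05. The EU libraries differed strongly among themselves, and EU 1 was the lowest of the 3 for every one of the 16 genes. Cryaa, a small heat shock protein and the chaperone of the lens, was at 27.4, 137 and 183 CPM with EU capture and at 65500 and 75800 CPM in total 2 and total 3 (log2 fold change -9.27, SE 1.35, adjusted p = 0.0989). Cryba1 was at 7.01, 294 and 279 CPM against 230000 and 172000 (log2 fold change -10.04, SE 2.01, adjusted p = 0.156). Cryge was at 11.4, 207 and 173 CPM against 107000 and 123000, and its near-identical neighbours in the gamma cluster share reads with it, so the split among them is uncertain. Cryab, which is also made outside the lens, had the smallest log2 fold change of the family at -7.58 (SE 1.22, adjusted p = 0.0989). The median log2 fold change of the 16 was -9.18, beside 0.29 over all genes tested. Leaving out EU 1, edgeR called all 16 lower, and DESeq2 and limma-voom with quality weights did so on all 5 libraries. In wild-type eye cells sorted by FACS the 16 genes summed to 10.1 to 61.7 CPM of the library total, against 252 to 3090 in the EU libraries and 302000 and 330000 in total 2 and total 3. Leaving mitochondrial and crystallin genes out before scaling gave the same 25 calls as the full table.

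**Figure D2:**
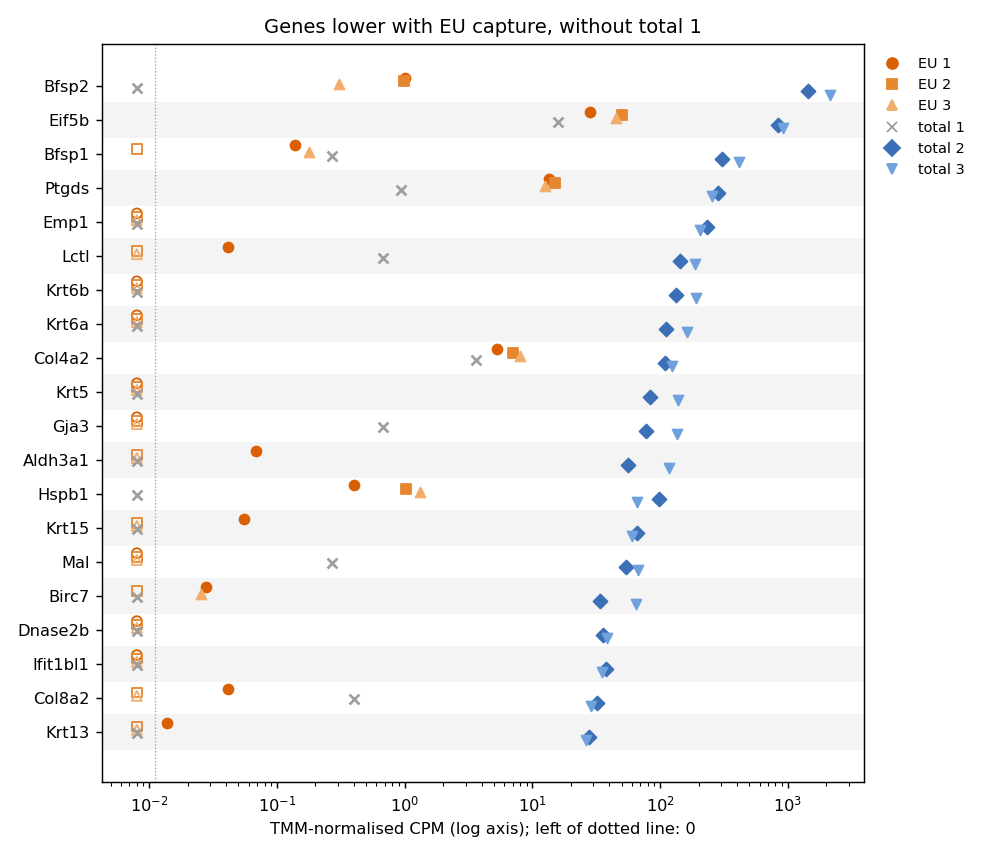
Level of 20 of the 25 genes that were lower with EU capture without total 1 (TMM-normalised CPM, logarithmic horizontal axis), 1 symbol per library; symbols left of the dotted line are 0. Total 2 and total 3 lie at 26.5 CPM or above for every gene shown, and the EU libraries reach at most 50.0 CPM, in Eif5b; the grey crosses of total 1 lie at 15.8 CPM or lower.

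Genes of stratified surface epithelium, the cell sheet of cornea and conjunctiva, were also among the 25. Krt5, the keratin of its basal layer, had no count in any EU library and 83.1 and 139 CPM in total 2 and total 3, at least 5630-fold lower. Krt15 was at 0.0553, 0 and 0 CPM against 66.1 and 60.7 (log2 fold change -11.21, SE 1.21, adjusted p = 0.0373). Aldh3a1, an aldehyde dehydrogenase that makes up much of the protein of mouse cornea, was at 0.0691, 0 and 0 CPM against 56.3 and 118 (log2 fold change -11.40, SE 1.30, adjusted p = 0.0402). Of the 5 genes fixed as corneal epithelium, 3 fell. In all 5 the EU libraries lay below total 2 and total 3, beside 18.2% of all genes tested. Outside that list, the keratins Krt6a and Krt6b had no count with EU capture and lay at 111 to 190 CPM in total 2 and total 3, at least 6910-fold and 8140-fold lower. These 2 genes are close paralogs, and reads may be split between them. Emp1, a membrane protein of epithelia, was at 234 and 205 CPM against 0 in the EU libraries, at least 11100-fold lower.

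A smaller set of called genes was detected in every EU library, so its fold changes do not rest on zeros. Ptgds, the prostaglandin D synthase that is abundant in pigment epithelium and other eye tissues, was at 13.6, 15.1 and 12.5 CPM against 283 and 257 (log2 fold change -4.31, SE 0.47, adjusted p = 0.0373). Eif5b, a translation initiation factor that joins the ribosomal subunits, was at 28.5, 50.0 and 45.3 CPM against 840 and 915 (log2 fold change -4.42, SE 0.54, adjusted p = 0.0458). Col4a2, a collagen of basement membranes such as the lens capsule, was at 5.31, 7.08 and 7.96 CPM against 109 and 124 (log2 fold change -4.11, SE 0.49, adjusted p = 0.0454). Hspb1, a small heat shock protein, was at 0.401, 1.02 and 1.33 CPM against 97.5 and 65.5 (log2 fold change -6.49, SE 0.73, adjusted p = 0.0402). Within each of these 4 genes the EU libraries lay close to each other and far below total 2 and total 3. Over the alternative fits without total 1, the log2 fold change ran from -4.38 to -1.52 for Ptgds and from -4.54 to -2.10 for Eif5b. It ran from -4.24 to -0.85 for Col4a2 and from -6.86 to -3.24 for Hspb1, which voom did not call (adjusted p = 0.0534). Total 1 was at 0.94, 15.8, 3.62 and 0 CPM for these genes, below all 3 EU libraries in each. Other called genes were Mal, Birc7, Krt13, Col8a2, Ifit1bl1, the processed pseudogene Rps6-ps4, whose reads cannot be told from those of Rps6 with certainty, and 3 provisional genes.

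Pigment cell genes had the same order of groups without a call. Of the 10 genes, 9 had every EU library below total 2 and total 3, beside 18.2% of all genes tested. EdgeR called 0 of the 9 that passed the filter on low counts, all 9 with an unadjusted p under 0.05. DESeq2 called 9 and voom 4. Rgr, an opsin of the pigment epithelium, was at 1.04, 0.249 and 0 CPM against 592 and 675 (log2 fold change -10.48, SE 1.67, adjusted p = 0.0989). Dct, an enzyme of melanin synthesis, was at 7.34, 8.50 and 0.535 CPM against 902 and 816 (log2 fold change -7.30, SE 1.19, adjusted p = 0.103). The median over the 9 genes was -7.30. Lens, corneal and pigment genes thus differed in the same direction, and their part in the other differences was not tested.

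**Figure D3:**
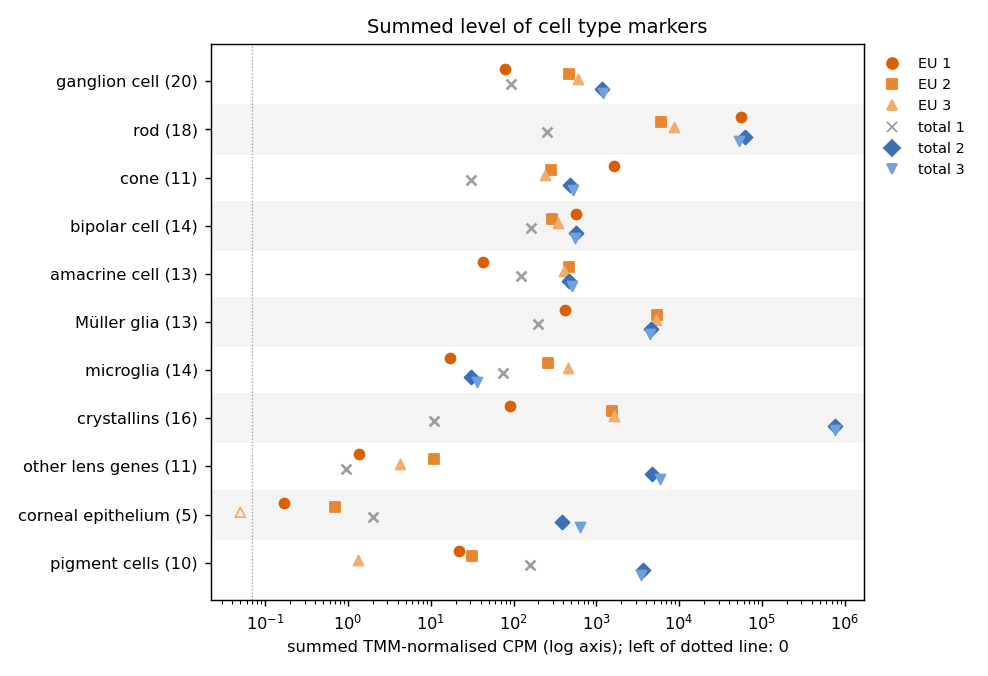
Summed level of 11 cell type marker lists (number of genes in brackets) in each library, as summed TMM-normalised CPM on a logarithmic axis; the symbol left of the dotted line is 0. Corneal epithelium reaches 389 and 643 CPM in total 2 and total 3 and at most 0.696 in the EU libraries, while the rod sum is 55300, 6000 and 8570 in the EU libraries against 62700 and 53100; as CPM of the library total, EU 1 (154000) stands above total 2 (25100) and total 3 (23200).

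Immediate early genes, which encode transcription factors and signalling brakes induced within minutes of a stimulus, lay above total 2 and total 3 in many cases. Of the 32 genes listed, 14 had every EU library above both, and none lay below. The share above was 14.1% of all genes tested and 7.29% of all genes with a count. EdgeR called 0 of the 25 that passed the filter, 14 of them with an unadjusted p under 0.05. The summed level of the list was 298, 970 and 1340 CPM with EU capture and 69.1 and 88.9 in total 2 and total 3. Total 1 was at 140, also below the 3 EU libraries. The median log2 fold change of the 25 genes was 4.01, beside 0.29 over all genes tested. Limma on log2(TPM + 1) gave a median of 3.40, beside 1.94 over all genes.

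Promoters of 4 of these 14 genes are shown as examples, chosen after their values were seen. Each promoter shown holds a cyclic AMP response element half-site. The window and the marks are those given for the lens genes.
Fos, chr12:85473770-85473889, plus strand: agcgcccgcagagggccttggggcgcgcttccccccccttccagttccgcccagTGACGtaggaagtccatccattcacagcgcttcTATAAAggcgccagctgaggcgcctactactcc
Fosb, chr7:19310046-19310165, minus strand: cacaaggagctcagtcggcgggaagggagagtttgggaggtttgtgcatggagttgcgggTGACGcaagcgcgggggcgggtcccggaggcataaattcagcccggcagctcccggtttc
Junb, chr8:84978749-84978868, minus strand: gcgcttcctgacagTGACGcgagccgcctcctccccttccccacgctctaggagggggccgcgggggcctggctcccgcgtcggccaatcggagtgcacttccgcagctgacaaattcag
Ccn1, chr3:145649986-145650105, minus strand: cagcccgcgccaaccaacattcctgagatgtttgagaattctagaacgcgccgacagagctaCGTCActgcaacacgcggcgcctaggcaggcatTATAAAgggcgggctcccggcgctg

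The cyclic AMP response element half-site, the core that CREB-family factors recognise, was in the window of 10 of the 26 listed genes with a RefSeq promoter and of 11.7% of all promoters. Fos, Fosb, Jun and Junb encode parts of the AP-1 transcription factor. Fos was at 61.9, 289 and 391 CPM with EU capture and at 1.57 and 4.80 in total 2 and total 3 (log2 fold change 6.26, SE 1.15, adjusted p = 0.130). The library labelled total 1 held 40.9 CPM of Fos, so the EU libraries lay above all 3 total libraries. Junb was at 9.0, 53.5 and 85.0 CPM against 0.922 and 1.18 (log2 fold change 5.53, SE 1.15, adjusted p = 0.166). With all 6 libraries its log2 fold change was 5.94 (SE 1.37, adjusted p = 0.365). Jun was at 9.09, 66.5 and 80.5 CPM against 4.61 and 5.56 (log2 fold change 3.34, SE 1.01, adjusted p = 0.320). Fosb had no count in total 2 and total 3 and was at 0.138, 12.7 and 24.9 CPM with EU capture (log2 fold change 11.77, SE 3.54, adjusted p = 0.354). The mean of the EU libraries was at least 95.3-fold higher against a floor of 3 counts over those 2 total libraries. That bound rests on EU 2 and EU 3, and total 1 held 0.671 CPM of Fosb, above EU 1. In each of these 4 genes EU 1 was the lowest EU library.

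Among the other factors of the list, Atf3, a stress-induced repressor, was at 7.71, 41.8 and 42.2 CPM against 0.277 and 0.0842 (log2 fold change 7.38, SE 1.27, adjusted p = 0.115). Total 1 held 19.6 CPM of Atf3, above EU 1. Egr1, a zinc finger factor, was at 11.9, 101 and 129 CPM against 1.57 and 8.25, with 28.6 in total 1 (log2 fold change 4.01, SE 1.27, adjusted p = 0.349). Egr1 and Atf3, like Fosb, therefore overlapped between the groups once total 1 was counted. Ier2, a nuclear protein of the same response, was at 10.4, 58.4 and 85.1 CPM against 2.03 and 2.19 (log2 fold change 4.59, SE 1.04, adjusted p = 0.200).

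Dusp1, a phosphatase that switches off MAP kinases, was at 6.34, 109 and 163 CPM against 3.97 and 2.86 (log2 fold change 4.75, SE 1.37, adjusted p = 0.295). Ccn1, a secreted matrix protein, was at 1.13, 64.9 and 60.1 CPM against 0.553 and 0.674 (log2 fold change 6.07, SE 1.76, adjusted p = 0.295), and at 5.86 on the log2 scale with all 6 libraries (SE 1.57, adjusted p = 0.365). Btg2, an antiproliferative gene, had EU values close to each other, 94.8, 53.2 and 126 CPM against 20 and 23.8 (log2 fold change 2.05, SE 0.58, adjusted p = 0.288). Not every member stood out: Klf2, Nr4a2 and Gadd45b overlapped between the groups, with Gadd45b at 2.03, 8.40 and 12.3 CPM against 6.64 and 17.5. Without EU 1, edgeR called 7 of the list higher, DESeq2 called 11 on all 5 libraries and voom called 4. As CPM of the library total the list summed to 827, 1590 and 2560 with EU capture, to 27.7 and 38.8 in total 2 and total 3, and to 551 to 942 in the FACS eye cells.

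**Figure D4:**
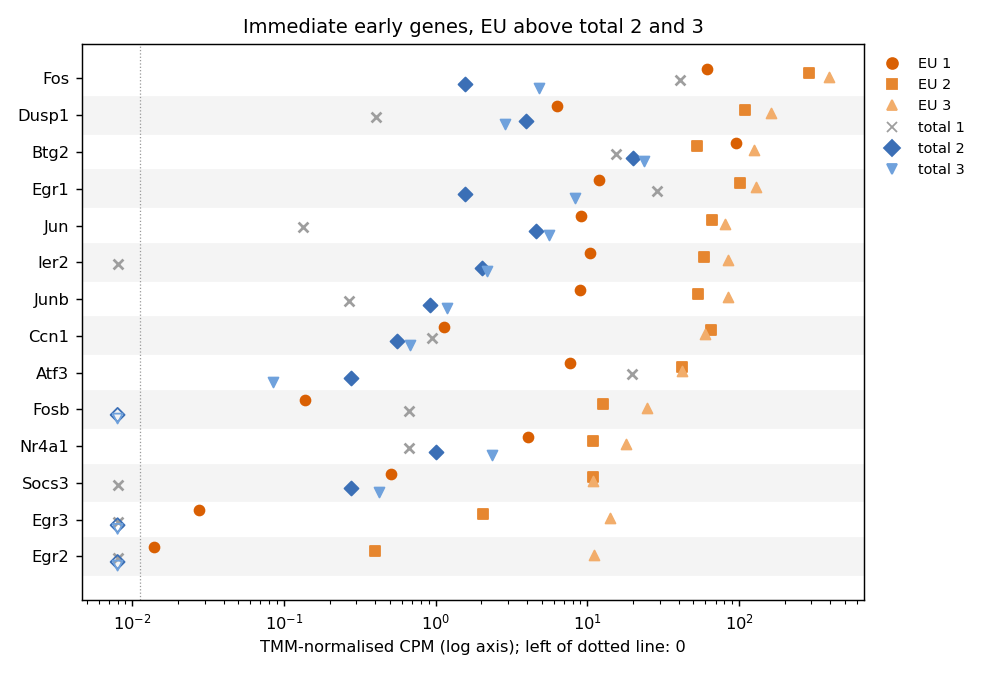
Level of the 14 immediate early genes with every EU library above total 2 and total 3 (TMM-normalised CPM, logarithmic horizontal axis), 1 symbol per library; symbols left of the dotted line are 0. EU 1 is the lowest EU library for 13 of the 14, the exception being Btg2, and total 1 lies above EU 1 for Egr1, Atf3 and Fosb.

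The summed levels of microglial, Müller glial and immediate early genes were each higher in EU 2 and EU 3 than in EU 1. The immediate early sum of EU 1 also lay above total 2 and total 3. Microglia are the resident macrophages of the retina, and their 14 markers summed to 17.0, 263 and 458 CPM with EU capture and to 30.6 and 36.5 in total 2 and total 3, so that EU 1 lay below both on this scale. As CPM of the library total they summed to 47.3, 430 and 873 with EU capture and to 12.3 and 15.9 in total 2 and total 3, where EU 1 lay above both. C1qb, a subunit of complement C1q, was at 0.898, 12.5 and 46.3 CPM against 0.277 and 0.505 (log2 fold change 5.63, SE 1.77, adjusted p = 0.346). Of the 14 genes, 4 had every EU library above total 2 and total 3, beside 14.1% of all genes tested and 7.29% of those with a count. EdgeR called 0, with 4 at an unadjusted p under 0.05; DESeq2 called 2 and voom 0. The part of microglial RNA in the immediate early gene levels was not tested.

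Müller glia span the retina and recycle glutamate and retinoids. Their 13 markers summed to 413, 5470 and 5190 CPM with EU capture and to 4590 and 4440 in total 2 and total 3. As CPM of the library total the sums were 1150, 8950 and 9900 against 1840 and 1940. On the TMM scale 0 of the 13 had every EU library above total 2 and total 3 and 2 had every one below. The shares over all genes tested were 14.1% above and 18.2% below. EdgeR called 0 of the 13, with 1 higher and 1 lower at an unadjusted p under 0.05, and DESeq2 and voom each called Vim alone. Glul, the glutamine synthetase of these cells, was at 20.5, 696 and 829 CPM against 81.3 and 62.8, and Slc1a3, their glutamate transporter, was at 9.0, 677 and 612 against 79.5 and 102. Rlbp1, a carrier of retinoids, did not follow them, at 79.2, 677 and 494 CPM against 505 and 493. Vim, an intermediate filament protein that the lens also makes, was at 20.3, 109 and 112 CPM against 1160 and 1180 (log2 fold change -3.88, SE 0.80, adjusted p = 0.165). Leaving out EU 1, edgeR called 5 of the 13 genes higher (Glul, Slc1a3, Abca8a, Gpr37 and Kcnj10) and Vim lower.

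Rod genes set EU 1 apart from EU 2 and EU 3 on both scales. On the TMM scale the rod sum was 55300, 6000 and 8570 CPM with EU capture and 62700 and 53100 in total 2 and total 3. As CPM of the library total the sum of EU 1 was 154000, within the 127000 to 222000 of the FACS eye cells and above the 25100 and 23200 of total 2 and total 3, so its place beside those libraries depends on the scale. Gnat1, the rod transducin alpha subunit, was at 10100, 1120 and 1380 CPM with EU capture and at 9410 and 9230 in total 2 and total 3, with 1 EU value above both and 2 below. Gngt1, the transducin gamma subunit, was an exception, with all EU libraries low at 30, 19.2 and 46.1 CPM against 881 and 544 (log2 fold change -4.50, SE 0.61, adjusted p = 0.0787). Pdc, which binds transducin in rods, was at 3890, 621 and 918 CPM against 15400 and 12000 (log2 fold change -2.93, SE 0.97, adjusted p = 0.388). In 6 of the 18 rod genes every EU library lay below total 2 and total 3 on the TMM scale, beside 18.2% of all genes tested. This count depends on the scale. As CPM of the library total, EU 1 lay above total 2 and total 3 for Pdc, Pde6b, Cnga1, Rp1 and Prph2. Of those 6 genes only Gngt1 kept every EU library below both. EdgeR called 0 of the 18, with 4 lower at an unadjusted p under 0.05 (DESeq2 3, voom 4), and 9 lower once EU 1 was left out. The rank correlation of EU 1 with the FACS eye cells averaged 0.890, against 0.736 for EU 2 and 0.725 for EU 3.

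Among the 20 ganglion cell markers edgeR called 0, with 2 lower at an unadjusted p under 0.05 and 2 called by DESeq2 and by voom. In 11 of the 20, some of which did not pass the filter, every EU library lay below total 2 and total 3 on the TMM scale. The share was 18.2% of all genes tested and 13.4% of all genes with a count. On that scale the 20 genes summed to 79.5, 464 and 594 CPM with EU capture and to 1170 and 1190 in total 2 and total 3. As CPM of the library total the sums were 221, 760 and 1130 against 468 and 521. There EU 2 and EU 3 lay above both, so the order of the groups depends on the scale. Tubb3, a neuronal tubulin, was at 30.3, 24.1 and 42.2 CPM against 287 and 270 (log2 fold change -3.13, SE 0.49, adjusted p = 0.0989). Nefl, the light neurofilament subunit, was at 9.88, 149 and 134 CPM against 381 and 450. Thy1, a surface protein used to capture ganglion cells, was at 1.04, 49.4 and 47.0 CPM against 18.9 and 8.02, in the other order for EU 2 and EU 3. Cartpt, at 9.58, 87.5 and 86.5 CPM against 27.7 and 28.4, had that order too. Of the 16 genes that passed the filter, 5 had a log2 fold change above 0 and 11 below. The median over the 16 genes that passed the filter was -1.46 with edgeR. Over the 13 that passed the filter on TPM it was 1.22 on log2(TPM + 1), where the median of all genes was 1.94, so the sign differed between these scales and gene sets.

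**Figure D5:**
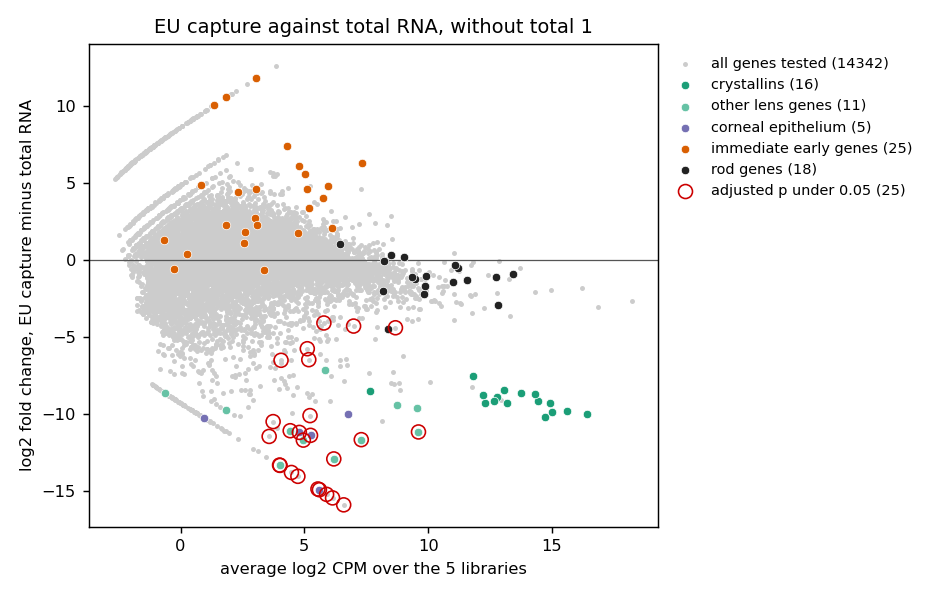
Log2 fold change of EU capture against total RNA without total 1 (vertical axis, EU minus total) by average log2 CPM (horizontal axis) for 14342 genes, with 5 gene lists in colour and the 25 genes with an adjusted p under 0.05 ringed. Crystallins lie between -10.21 and -7.58 at high levels, the ringed genes are all below 0, and most immediate early genes lie above 0.

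The 3 lists of protein synthesis genes gave 0 calls with edgeR; Eif5b, a called translation factor, is in none of them. Over all genes tested, 14.1% had every EU library above total 2 and total 3 and 18.2% below, the shares beside which the counts here stand. Of 75 mitochondrial ribosomal proteins, which are encoded in the nucleus, 29 had every EU library above total 2 and total 3 and 2 below, with a median log2 fold change of 0.86. At an unadjusted p under 0.05, 8 were higher and 0 lower, and DESeq2 and voom called 0. Mrpl4, of the large subunit, was at 42.0, 18.9 and 37.7 CPM against 6.46 and 8.51 (log2 fold change 2.13, SE 0.63, adjusted p = 0.313). Mrpl24 was at 25.9, 22 and 23 CPM against 5.55 and 7.4 (log2 fold change 1.86, SE 0.59, adjusted p = 0.347). Cytoplasmic ribosomal proteins went the other way in part, with 39 of 83 below total 2 and total 3 and 7 above and a median of -0.60 (1 higher and 11 lower at an unadjusted p under 0.05; DESeq2 called 3 lower and voom 1). On log2(TPM + 1) their median was 2.17, above the 1.94 of all genes. As CPM of the library total they were higher with EU capture, at a sum of 24900, 16400 and 31200 against 9890 and 8830. Of the 24 listed translation factors, 16 lay below and 1 above, with 1 higher and 10 lower at an unadjusted p under 0.05 (DESeq2 called 3 lower and voom 2). Their sum as CPM of the library total was 9470, 5100 and 6520 with EU capture and 5000 and 4950 in total 2 and total 3, so their direction also depends on the scale.

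Of the 22 chaperone genes, 11 had every EU library below total 2 and total 3 and 2 above. The shares over all genes tested were 18.2% below and 14.1% above. The 22 chaperone genes summed to 3600, 2930 and 2930 CPM with EU capture and to 15600 and 14400 in total 2 and total 3. As CPM of the library total the sums were 10000, 4790 and 5600 against 6240 and 6260, which overlap. EdgeR called Hspb1 alone, DESeq2 called 8 lower, voom 4 lower, and edgeR without EU 1 called 7 lower. Hspa8, the constitutive Hsp70, was at 713, 623 and 681 CPM against 4980 and 4890. Of 17 long noncoding RNAs, 7 lay below total 2 and total 3 and 3 above (Snhg1, Snhg12 and Peg13), beside those same shares. EdgeR called 0 of them, with 3 lower at an unadjusted p under 0.05, DESeq2 called 2 lower and voom 0. Their sum as CPM of the library total was higher with EU capture, at 815, 988 and 971 against 772 and 495. Malat1, a nuclear noncoding RNA, was at 127, 154 and 155 CPM against 1290 and 617 on the TMM scale (log2 fold change -2.72, SE 0.54, adjusted p = 0.156). As CPM of the library total its groups overlapped, with EU 1 above total 3. Snhg14, the transcript that runs through the imprinted Prader-Willi region, was at 1.26, 2.08 and 0.318 CPM against 60.8 and 38.5 (log2 fold change -5.35, SE 0.90, adjusted p = 0.11). Total 1 held 177 CPM of Snhg14, so all 3 total libraries lay above all 3 EU libraries. Mitochondrially encoded genes gave 7.89%, 55.2% and 46.5% of counts with EU capture and 47.3% and 42.3% in total 2 and total 3. Of these 15 genes 11 lay below total 2 and total 3 on the TMM scale, beside 18.2% of all genes tested, with mt-Co3, a subunit of complex IV, at a log2 fold change of -3.07 (SE 1.33, adjusted p = 0.536).

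Outside the lists, the genes with the smallest p among those higher with EU capture included Inpp4a, a lipid phosphatase, at 19.0, 28.0 and 29.8 CPM against 1.85 and 0.758 (log2 fold change 4.29, SE 0.78, adjusted p = 0.130). Eid1, an inhibitor of p300-dependent differentiation, was at 86.4, 87.9 and 119 CPM against 16.4 and 17.3 (log2 fold change 2.52, SE 0.51, adjusted p = 0.156). Ids, a lysosomal sulfatase, was at 22.2, 40.8 and 44.2 CPM against 4.61 and 4.04 (log2 fold change 3.03, SE 0.63, adjusted p = 0.166). In each of the 3, all EU libraries lay above all 3 total libraries, and edgeR called none of them without total 1. Over 13 settings, Inpp4a was called in 6 (adjusted p from 8.1e-06 to 1.0), Eid1 in 5 (from 0.0012) and Ids in 6 (from 0.0011).

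Transcript features had weak relations to the fold change. Over 12629 protein-coding genes, the Spearman correlation of the log2 fold change without total 1 was -0.132 with the share of U in the transcript, -0.111 with its length and 0.186 with its GC content. Without EU 1 they were -0.045, -0.052 and 0.095, and on log2(TPM + 1) they were -0.073, -0.255 and 0.142. These are correlations across genes, which share libraries and are not independent replicates. The fifth of genes with the least U, 8.57% to 21.9%, had a median log2 fold change of 0.59, and the fifth with the most, 28.3% to 47.5%, had 0.12. The relation to U was largest in EU 1: taken alone against the mean of total 2 and total 3, it gave -0.190, EU 2 gave -0.019 and EU 3 gave -0.077. EU is built in at positions of U. The U share is that of the longest annotated transcript of a gene, and a dependence of the capture on U was not tested.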

How the data were processed

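The values are the deposited table of gene-level estimated counts, with a second deposited table in TPM, both made by the authors with Salmon on mm10, per the submitters' processing notes; no version or annotation release is given in the sources used here. Estimated counts were rounded. Gene positions and transcript features came from GENCODE M21 (54097 of 54331 genes matched), and promoters from RefSeq (GRCm38.p6). Genes were filtered with filterByExpr, scaled with TMM and tested with the quasi-likelihood test of edgeR 4.0.16 (R 4.3.3), two-sided, with Benjamini-Hochberg adjustment over all genes tested. Alternatives were other size factors, no filter, DESeq2 1.42.0, limma 3.58.1 on log2(TPM + 1) and log2(TPM + 0.1), voom with quality weights, 1 fit over all 15 groups, a fit without mitochondrial and crystallin genes, and each library left out. Levels use the TMM factors of the 6-library fit. Counts of list members with non-overlapping groups include members that did not pass the filter. Over all 28646 genes with a count in the 6 libraries, 7.29% had EU capture above total 2 and total 3 and 13.4% below. Named genes were the 8 largest called changes in each direction (absolute log2 fold change of at least 1, groups not overlapping, average log2 CPM of 4 or more), filled by smallest p, and per list the 3 highest and the 3 with the smallest p; other list members were named after their values were seen. The comparison, the 38 gene lists and the promoters shown were chosen with earlier results of these data known. No 2 libraries of a group agreed within sampling noise (chi-square per gene at least 50.9). The scripts were tested on simulated counts. At the spread estimated without total 1, the main test called 0 of 99 genes changed by a log2 fold of 2. It called 14 of 98 genes changed by a log2 fold of 4. With all 6 libraries it called 0 of 99 at either fold. A count of 0 calls therefore does not show that genes were unchanged. Some listed genes are not reported here by name.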

Additional observations from a re-analysis of the deposited data

How the results depend on the processing

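No paired analysis was possible because the title codes of the 2 groups share no replicate number, so no replicate block could be fitted. With all 6 libraries, the 0 genes higher and 0 lower became 16 and 1362 with no filter on low counts, 17 and 221 with DESeq2, 3881 and 18 with limma on log2(TPM + 1), 3287 and 21 on log2(TPM + 0.1), 8 and 28 with voom and quality weights, and 357 and 2229 in 1 fit over all 15 groups. Without total 1, the 0 higher and 25 lower became 29 and 347 with no filter, 113 and 583 with DESeq2, 1824 and 83 on log2(TPM + 1), 4396 and 100 on log2(TPM + 0.1), 19 and 147 with voom, and 18 and 247 in the fit over all groups. Leaving out 1 library at a time gave 0 to 0 higher and 0 to 25 lower with all 6 libraries, and 0 to 30 higher and 0 to 215 lower without total 1; there a group left with 1 library is assumed to vary like the other. The 25 genes kept their direction in every alternative. All 25 were also called by DESeq2, 21 by voom, 19 on log2(TPM + 1), and 0 without EU 2 or without EU 3. The cause of these differences was not tested. Size factors by relative log expression gave 26 lower, and leaving mitochondrial and crystallin genes out gave 25. The TPM scale moved the median gene from 0.29 to 1.94 without total 1, so list medians near 0 change sign on it. The calls rest on 2 or 3 libraries a group, and genes with 0 counts in the EU libraries give bounds only.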

Other observations

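Total 1 held several groups of genes at levels that no other immunopanned library approached. Kcnq1ot1, an imprinted noncoding RNA, was at 4840 CPM there, against 51.3 to 94.3 in total 2 and total 3 and 6.46 to 52.6 with EU capture. Among the genes picked by the smallest p with all 6 libraries, the vomeronasal receptors Vmn1r6 and Vmn1r12 were at 461 and 194 CPM in total 1 and at no more than 5.64 CPM in any other of the 6. Tyr, the tyrosinase of melanin synthesis, was at 112 CPM in total 1 and 10.7 and 14.6 in total 2 and total 3, while Pmel, a pigment granule protein, was at 2.95 CPM there against 783 and 1010. Pseudogenes took 16.4% of the counts of total 1 and genes awaiting experimental support 11.5%.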
